A study of Mus musculus with 26 samples.

Results

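The IgG2 and IgM heavy chains of lymph node B cells were compared within each of 4 replicates. The IgG2 set held 5302 clonotypes and the IgM set 232709. All 26 libraries of the series, which include a positive control, held 1716057 clonotypes, each counted once per replicate and constant gene. A clonotype was a V gene, a J gene and a junction nucleotide sequence, and it was taken as IgG2 or IgM from the constant gene listed with its sequences, with the 2 technical libraries of each replicate pooled. IgG2 clonotypes numbered 394, 2683, 914 and 1311 in replicates 1 to 4, with 4956, 32062, 13271 and 23719 copies. IgM clonotypes numbered 22556, 91918, 41700 and 76535, with 73761, 156357, 88289 and 153561 copies.

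The series profiled bulk heavy-chain transcripts of skin, spleen and lymph node in wild-type mice (genotype WT), all of them under the treatment named S. epidermidies association in the labels, meaning colonisation with a bacterium of normal skin. No group was left unassociated, so IgG2 and IgM were compared inside the same libraries and not against unassociated mice. The labels number 4 biological replicates per tissue but do not say whether each was 1 animal or pooled nodes, and they give no strain, age or sex. The tissue field reads ear skin for the lymph node libraries too, so the tissue was taken from the titles, and tables of heavy chains alone hold no other gene by which a lymph node could be checked.

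IgM is the first isotype a B cell makes and is carried by naive cells with unmutated V segments. After activation, B cells can switch the constant gene downstream of the same rearranged V, D and J segments, so IgM and IgG2 descendants of 1 cell keep the same junction. In germinal centres of lymph nodes the enzyme AID, which also starts class switching, mutates the V segments, and cells with better binding receptors expand. In mice IgG2 is known as an isotype of responses driven by interferon and by microbial ligands. The assay reads its subclasses IgG2a, IgG2b and IgG2c as 1 isotype. On mouse chromosome 12 (GRCm38, RefSeq gene spans) the constant genes compared lie at chr12:113418826-113422730 for Ighm and, for IgG2, at chr12:113304314-113307933 for Ighg2b and chr12:113287389-113288932 for Ighg2c. IgG2 took up 5.32% to 14.1% of lymph node copies and IgM 68.6% to 79.2%, and the 8 libraries held 44772 to 117512 copies each. In bulk RNA, fewer cells of an isotype and less RNA per cell cannot be told apart, and a plasma cell holds far more heavy-chain RNA than a resting cell.

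The junctions below show what a clonotype is and carry the results on clone size and on shared isotypes. They run 5′ to 3′ on the coding strand. The capitals are CDR3, the loop made where V, D and J join, and the lower-case ends are the codons of the conserved cysteine and tryptophan around it. The first 4 are the largest IgG2 clonotypes found in both technical libraries of each replicate, and the last 4 hold both isotypes, 1 per replicate, chosen by the copies of their rarer isotype. Each of the last 4 includes a sequence called IgG2 in one technical library and another isotype in the other, as described after the sequences.
IGHV1-26 with IGHJ3, replicate 1: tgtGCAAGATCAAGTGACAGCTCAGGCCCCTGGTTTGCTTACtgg
IGHV1-22 with IGHJ1, replicate 2: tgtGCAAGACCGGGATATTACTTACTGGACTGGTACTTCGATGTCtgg
IGHV9-1 with IGHJ4, replicate 3: tgtGTAACCCCTCTACGGGACTACtgg
IGHV1-9 with IGHJ4, replicate 4: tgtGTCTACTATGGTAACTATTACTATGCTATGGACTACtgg
IGHV1-9 with IGHJ4, replicate 1, both isotypes: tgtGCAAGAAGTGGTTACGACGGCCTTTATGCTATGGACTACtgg
IGHV1-61 with IGHJ2, replicate 2, both isotypes: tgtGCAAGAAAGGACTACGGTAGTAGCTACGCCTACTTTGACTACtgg
IGHV1-39 with IGHJ3, replicate 3, both isotypes: tgtGCAAGATGGCCAGAGGCTTACtgg
IGHV9-3 with IGHJ2, replicate 4, both isotypes: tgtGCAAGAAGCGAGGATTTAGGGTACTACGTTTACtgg

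The constant gene call itself limits these comparisons and is described first. Within a technical library each distinct sequence carried a single constant gene, with 13 exceptions among 356995 sequences. Of 11449 sequences found in both technical libraries of a replicate, 79.0% had the same constant gene in both. Most of the others, 2239 sequences, were IgM in one library and IgD in the other. Of the 11449, 806 were called IgG2 in at least 1 library. Of these 806, 683 were IgG2 in both, 90 were IgG2 in one and IgM in the other, and 33 were paired with another isotype. The largest such sequence, the IGHV9-3 junction of replicate 4 printed above, held 10232 copies called IgG2 in technical library 1 and 10068 copies called IgM in technical library 2. In both libraries all of its near variants, sequences with at most 3 nucleotide differences, were called IgG2 (16 of 16 in library 1 and 20 of 20 in library 2). Over the 12 largest such sequences, 130 of 151 near variants in the libraries that called the sequence IgM were called IgG2. Of the 12, 10 had a majority of IgG2 near variants in both libraries. The exceptions were both in replicate 2. The IGHV1-61 sequence printed above had 6 of 15 in library 1 and 6 of 12 in library 2. An IGHV1-20 sequence had 0 of 8 and 0 of 9, all called IgM. The main measures were also computed without the clonotypes that hold such sequences, and those values are given where they differ in size.

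Lymph node IgG2 clonotypes carried more V segment mutation than IgM clonotypes in every replicate. Mutation is the share of aligned V nucleotides, a median of 144 covering CDR2, framework 3 and the V end of CDR3, that differ from the assigned V allele in the deposited tables. Averaged over clonotypes it was 1.2%, 2.16%, 2.42% and 1.63% in IgG2 of replicates 1 to 4, against 0.537%, 0.529%, 0.489% and 0.433% in IgM. The groups did not overlap, and IgG2 of replicate 1 was the lowest of the IgG2 values. The means were 1.86% ± 0.546 in IgG2 and 0.497% ± 0.0476 in IgM (SD, n = 4 each), a difference of 1.36 percentage points. The exact two-sided sign-flip permutation test on the 4 paired differences gave p = 0.125, the smallest value 4 pairs allow, so no single value compared in this way could pass 0.05. Taken as unpaired, the exact permutation test over the 70 splits gave p = 0.0286, also its smallest.

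Clonotypes were also classed by the V mismatches of their most frequent sequence, with ties going to fewer mismatches. Clonotypes with no V mismatch in that sequence, called unmutated here, made up 43.1%, 28.1%, 23.9% and 34.2% of IgG2, against 72.2%, 71.8%, 74.0% and 74.7% of IgM. Their less frequent sequences could hold mismatches. At the other end, 6 or more mismatches were found in 9.64%, 21.1%, 26.6% and 14.1% of IgG2 clonotypes, against 3.58%, 3.42%, 3.15% and 2.69% of IgM clonotypes. Neither class overlapped between the isotypes. Germline V segments over the bases read were thus the smaller part of IgG2 and the larger part of IgM in all 4 replicates.

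**Figure D1:**
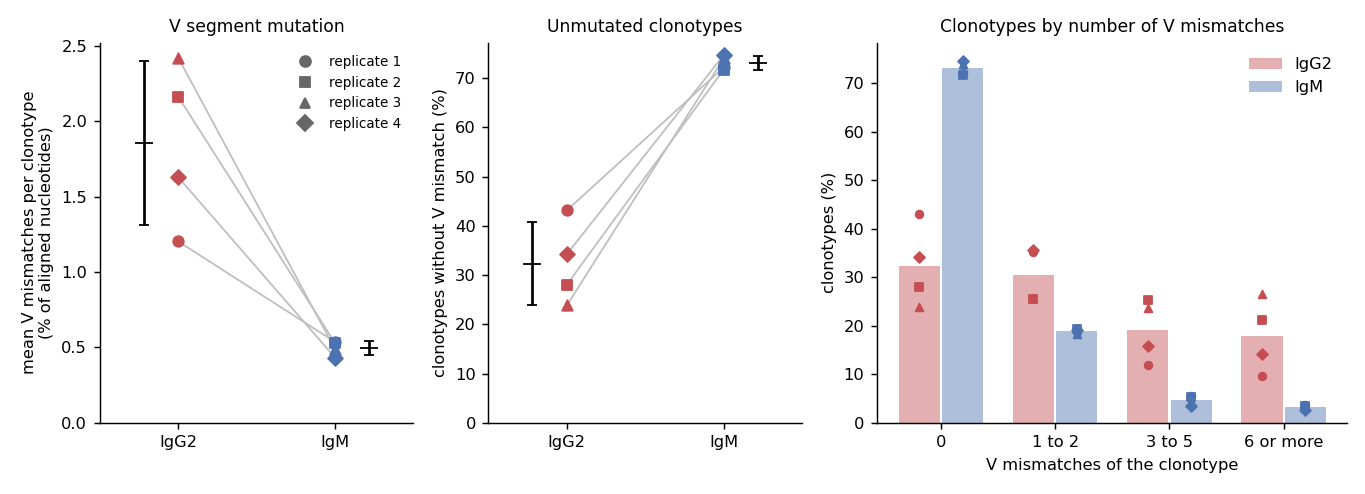
V segment mutation of lymph node IgG2 (red) and IgM (blue) clonotypes, 1 symbol shape per replicate, lines joining the isotypes of a replicate, black bars showing mean ± SD (n = 4). The right panel gives the percent of clonotypes by number of V mismatches in their most frequent sequence (bars, means). IgG2 points lie at 1.2% to 2.42% mutation and IgM points at 0.433% to 0.537%.

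The mutation difference was also present inside single V genes. With limma and the replicate as a block, 6 of the 9 V genes that had at least 10 clonotypes of each isotype in every replicate were higher in IgG2 at an adjusted p under 0.05 (66.7% called) and 0 were lower. The values of the isotypes did not overlap for 7 of the 9 (77.8%). The spread was partly pooled by limma over the 9 genes, which come from the same 4 replicates and are not independent. IgG2 and IgM means had equal weight in the fit, although the IgG2 means rest on fewer clonotypes. These p-values thus cannot be set beside the exact tests of 4 pairs. IGHV1-82 (chr12:115952538-115952831) had 2.61%, 3.11%, 3.63% and 2.32% mutation in IgG2, against 0.893%, 0.944%, 0.871% and 0.747% in IgM. Of the 9 it had the largest difference, 2.05 ± 0.244 percentage points (SE; limma adjusted p = 0.00367). IGHV1-18 (chr12:114682632-114682925) had 0.998%, 2.41%, 3.83% and 1.56% in IgG2, against 0.649%, 0.648%, 0.932% and 0.688% in IgM, so replicate 3 stood highest in both isotypes (difference 1.47 ± 0.454, SE; limma adjusted p = 0.0349). IGHV1-53 averaged 2.06% ± 0.598 in IgG2 and 0.676% ± 0.216 in IgM (SD, n = 4; limma adjusted p = 0.00527). IGHV1-19 averaged 1.79% ± 0.367 in IgG2 and 0.674% ± 0.128 in IgM (SD, n = 4; limma adjusted p = 0.00488).

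Among the smaller differences, IGHV1-26 (difference 0.92, limma adjusted p = 0.0167) and IGHV8-12 (0.57, limma adjusted p = 0.0249) passed the test. IGHV9-3 had 0.607% ± 0.130 in IgG2 and 0.249% ± 0.0278 in IgM (SD, n = 4) and was higher in 4 of 4 replicates without passing (limma adjusted p = 0.0578). IGHV1-80 and IGHV1-55 were higher in IgG2 in 3 of 4 replicates, with replicate 1 the exception, and did not pass (limma adjusted p = 0.0663 and 0.0600). The 9 genes kept the same direction when each replicate was left out, but 3 of 9 passed without replicate 2, 3 of 9 without replicate 4, and 0 of 9 when each clonotype was weighted by its copies. With V genes of at least 5 clonotypes of each isotype in every replicate, 13 of 21 passed, all higher in IgG2.

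**Figure D2:**
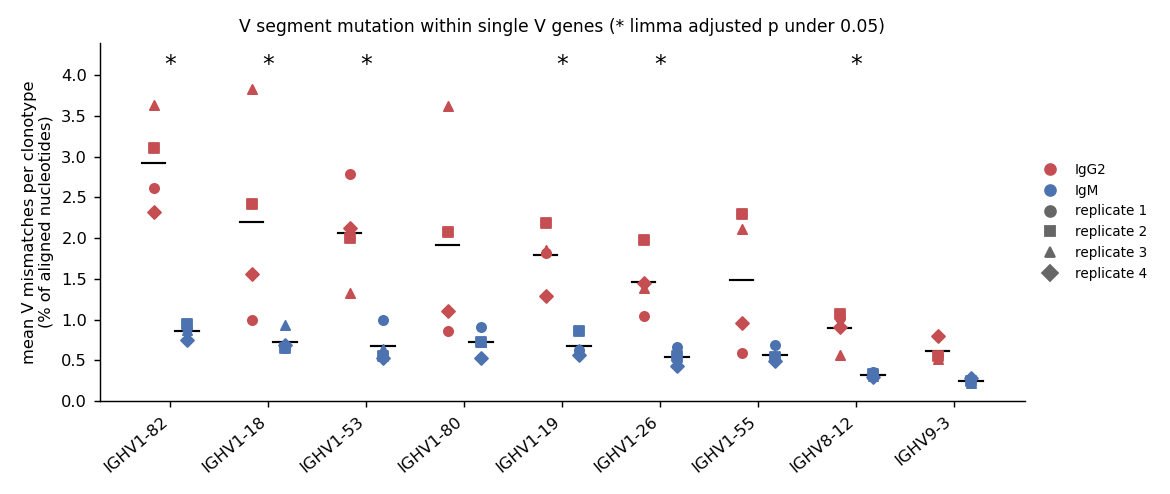
Mean V mismatch percent per clonotype in IgG2 (red) and IgM (blue) for the 9 V genes with at least 10 clonotypes of each isotype in every replicate, ordered by the difference, 1 symbol shape per replicate, black lines at the means. Stars mark the 6 genes with a limma adjusted p under 0.05, among them IGHV1-82 at 2.32% to 3.63% in IgG2 and 0.747% to 0.944% in IgM.

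The kind and place of the mismatches also differed in level. Mismatches that replace an amino acid made up 71.1%, 67.9%, 68.9% and 67.5% of V mismatches in IgG2, against 64.2%, 64.5%, 65.3% and 64.9% in IgM, with no overlap (exact sign-flip permutation p = 0.125, n = 4 pairs). The mean difference was 4.17 points, and 2.01 points in lineages (exact p = 0.25, n = 4 pairs). CDR2, a loop that touches antigen, held 16.3%, 14.6%, 20.2% and 16.7% of the located mismatches in IgG2, against 11%, 12.5%, 12.2% and 13.3% in IgM. The order for CDR2 turned when clonotypes were merged into lineages (IgG2 minus IgM -1.33 points) and when only clonotypes seen in both technical libraries were kept (-4.19 points). Inside CDR2 the replacement share was 75.7%, 78.4%, 67.0% and 82.1% in IgG2, against 66.9%, 68.5%, 66.0% and 63.7% in IgM, where replicate 3 of IgG2 fell among the IgM values. That difference averaged 9.54 points, and 3.03 points in clonotypes seen in both technical libraries. In framework 3, the scaffold between CDR2 and CDR3, it averaged 67.1% ± 2.48 in IgG2 and 64.3% ± 0.775 in IgM (SD, n = 4), higher in 3 of 4 replicates.

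Mutation was not highest in the largest IgG2 clonotypes. IgG2 clonotypes of 1 copy averaged 1.5%, 2.34%, 2.53% and 1.73% mutation, and those of 20 copies or more averaged 0.530%, 1.40%, 2.14% and 1.30%. IgM clonotypes of 1 copy averaged 0.960%, 0.661%, 0.730% and 0.527%, and those of 20 copies or more 0.866%, 0.432%, 0.262% and 0.480%. At 20 copies or more, IgG2 was thus above IgM in replicates 2, 3 and 4 and below it in replicate 1, where only 19 IgG2 and 69 IgM clonotypes were that large. When every clonotype counted by its copies, the IgG2 minus IgM difference in mutation averaged 0.50 percentage points in place of 1.36, and it was -0.13 in replicate 1. In the same way the difference in unmutated share averaged -12.7 points in place of -40.8, but the replicates split. It was 7.30 and 4.36 points in replicates 1 and 4, and -39.3 and -23.2 points in replicates 2 and 3. Without the clonotypes called unlike in the technical libraries, which hold much of the IgG2 of replicate 4, the values weighted by copies were 0.67 points for mutation and -18.4 points for the unmutated share. There the unmutated share was higher in IgG2 in replicate 1 alone, by 7.94 points. Mismatches from copying errors or from alleles of an unstated strain were not separated from somatic mutation here.

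IgG2 was far less diverse than IgM at the same number of copies. In 4956 copies, the size of the smallest IgG2 set, IgG2 held 394, 719, 503 and 412 distinct clonotypes in replicates 1 to 4 (means of 100 draws), against 4044, 4264, 4490 and 3583 in IgM. The groups were well apart in each replicate, with 4 of 4 lower in IgG2 (exact sign-flip permutation p = 0.125, n = 4 pairs). The 10 largest clonotypes took up 74.9%, 37.1%, 69.3% and 74.9% of the drawn IgG2 copies, against 5.68%, 7.05%, 3.44% and 18.2% of the drawn IgM copies. Replicate 2 was the least concentrated in IgG2 and replicate 4 the most concentrated in IgM. Without clonotypes called unlike in the technical libraries the mean difference in that share was 51.6 points, against 55.4 with them. In replicate 4 the 3 largest IgG2 clonotypes, with 10232, 2590 and 1970 of 23719 IgG2 copies, are all of this kind. The same clonotypes held 10068, 2589 and 1957 of its 153561 IgM copies. The shares of replicate 4 given above include them.

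Most IgG2 clonotypes were nevertheless small. Single-copy clonotypes made up 56.1%, 67.9%, 58.6% and 72.8% of IgG2 clonotypes, against 36.3%, 70.2%, 49.6% and 70.3% of IgM clonotypes, which overlapped. Clonotypes of 20 copies or more made up 4.55% to 5.58% of IgG2 clonotypes and held 80.9% to 91.5% of IgG2 copies, against 0.103% to 0.306% of IgM clonotypes and 5.13% to 28.5% of IgM copies. Lineages, in which clonotypes of equal V gene, J gene and CDR3 length were linked at 85% or more CDR3 nucleotide identity, held on average 1.46, 1.65, 2.20 and 1.56 IgG2 clonotypes, against 1.30, 1.44, 1.30 and 1.40 IgM clonotypes. The clonotype was seen again in the second technical library for 9.90%, 16.8%, 16.2% and 13% of IgG2 clonotypes, against 2.58%, 5.61%, 2.65% and 5.24% of IgM clonotypes.

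The largest IgG2 clonotypes called IgG2 in both technical libraries came from different V genes in each replicate and were mostly germline. The IGHV1-26 clonotype of replicate 1, printed above, held 2744 copies (1235 and 1509 in the 2 technical libraries), 55.4% of that replicate's IgG2, in a single sequence with 0 V mismatches. The IGHV1-22 clonotype of replicate 2 held 2994 copies (1554 and 1440) and was mutated, with 3.31% of its V nucleotides mismatched. The IGHV9-1 clonotype of replicate 3 held 4015 copies (1642 and 2373), 30.3% of its IgG2, with 0 mismatches in its most frequent sequence and a CDR3 of 7 codons. The IGHV1-9 clonotype of replicate 4 held 843 copies (393 and 450) with 0 mismatches. These 4 clonotypes were not found in the IgM of their own replicate. Of the 12 clonotypes made up of the 3 largest per replicate called IgG2 in both technical libraries, 9 had 0 mismatches in their most frequent sequence. In replicate 4 that condition left out the 3 largest IgG2 clonotypes of all, from IGHV9-3, IGHV3-6 and IGHV1-18, with 10232, 2590 and 1970 IgG2 copies in 1 technical library each. They held 10068, 2589 and 1957 IgM copies, and each includes a sequence of unlike call. In replicates 1 to 3 the 3 largest were the same with or without the condition.

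**Figure D3:**
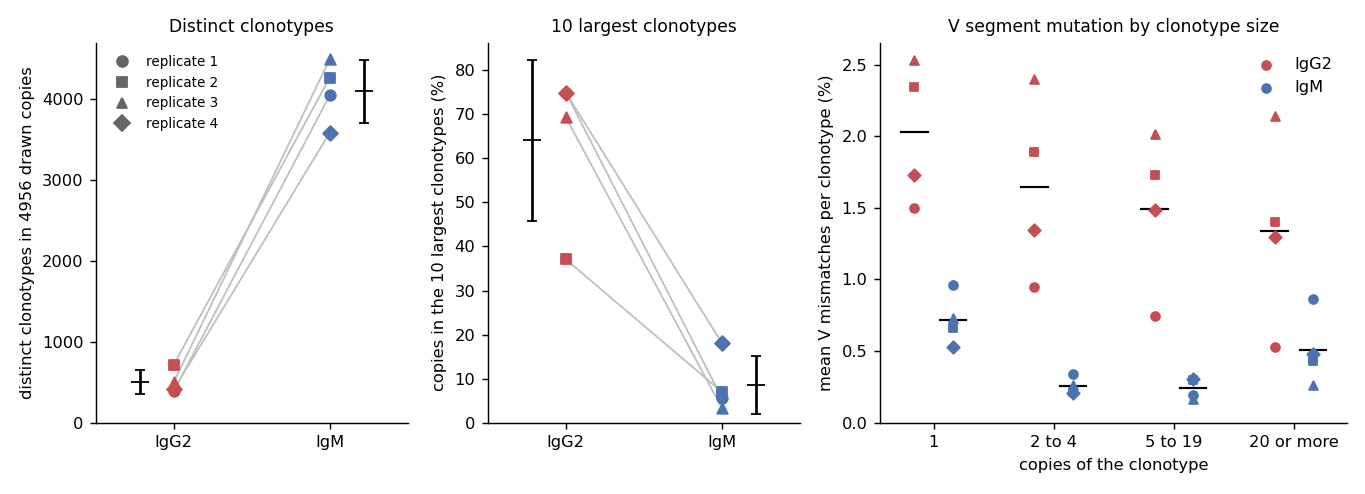
Left and middle, distinct clonotypes and the percent of copies in the 10 largest clonotypes at 4956 drawn copies for IgG2 (red) and IgM (blue), 1 symbol shape per replicate, with mean ± SD (n = 4). Right, mean V mismatch percent by clonotype size, where IgG2 of 1 copy lies at 1.5% to 2.53% and IgG2 of 20 copies or more at 0.530% to 2.14%.

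J gene use differed between the isotypes for IGHJ3 and IGHJ4. IGHJ3 (chr12:113429085-113429132) was used by 29.2%, 19.9%, 12.4% and 14.3% of IgG2 clonotypes, against 7.16%, 8.02%, 7.98% and 8.23% of IgM clonotypes. IGHJ4 (chr12:113428514-113428567), the J gene nearest the constant genes, was used by 24.1%, 25.3%, 18.4% and 35.2% of IgG2 clonotypes, against 40.3%, 36.2%, 38.5% and 37.7% of IgM clonotypes. IgG2 was higher for IGHJ3 and lower for IGHJ4 in 4 of 4 replicates with no overlap, and the exact sign-flip permutation p of 0.125 became 0.25 after adjustment over the 4 J genes. The IGHJ3 difference, 11.1 points, was 18.5 points when clonotypes were weighted by copies, and the IGHJ4 difference, -12.4 points, was -7.72 points in lineages. IGHJ2 was used by 24.9%, 35.1%, 53.0% and 32.5% of IgG2 clonotypes, against 33.2%, 35.5%, 33.6% and 34.5% of IgM clonotypes, so only replicate 3 was higher. IGHJ1 averaged 19% ± 2.35 in IgG2 and 19.8% ± 0.372 in IgM (SD, n = 4), within the IgG2 spread.

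The V gene families, groups of related V genes named by their first number, differed by a few points. IGHV1, the large J558 family, made up 62.9%, 73.9%, 79.9% and 68.5% of IgG2 clonotypes, against 62.5%, 63.1%, 62.2% and 61.6% of IgM clonotypes. It was higher in 4 of 4 replicates, by only 0.473 points in replicate 1, and the mean difference of 8.98 points was 3.49 points with copies as weights. IGHV5, another large family, made up 6.60%, 4.66%, 3.28% and 5.34% of IgG2 clonotypes, against 7.93%, 7.77%, 8.13% and 8.27% of IgM clonotypes. IGHV2, the Q52 family, averaged 3.37% ± 0.545 in IgG2 and 5.17% ± 0.144 in IgM (SD, n = 4). IGHV6, IGHV7 and IGHV9 were likewise lower in IgG2 in 4 of 4 replicates with no overlap, at 1.76% against 3.37%, 0.579% against 1.71% and 4.24% against 5.54% on average in IgG2 against IgM. The IGHV9 order turned with copies as weights, where IgG2 was 13.4 points higher on average, or 4.45 points without the clonotypes called unlike in the technical libraries, and then higher in replicate 3 alone. IGHV14 was the reverse case, with 2.79%, 4.03%, 2.63% and 2.59% of IgG2 clonotypes, against 1.81%, 2.15%, 2.18% and 2.31% of IgM clonotypes. IGHV10 was lower in 4 of 4 replicates but overlapped, and IGHV3 and IGHV8 went both ways among replicates. Of the 10 families, 0 passed the paired exact test, whose smallest adjusted p was 0.156, and 6 passed unpaired (adjusted p = 0.0476 each).

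**Figure D4:**
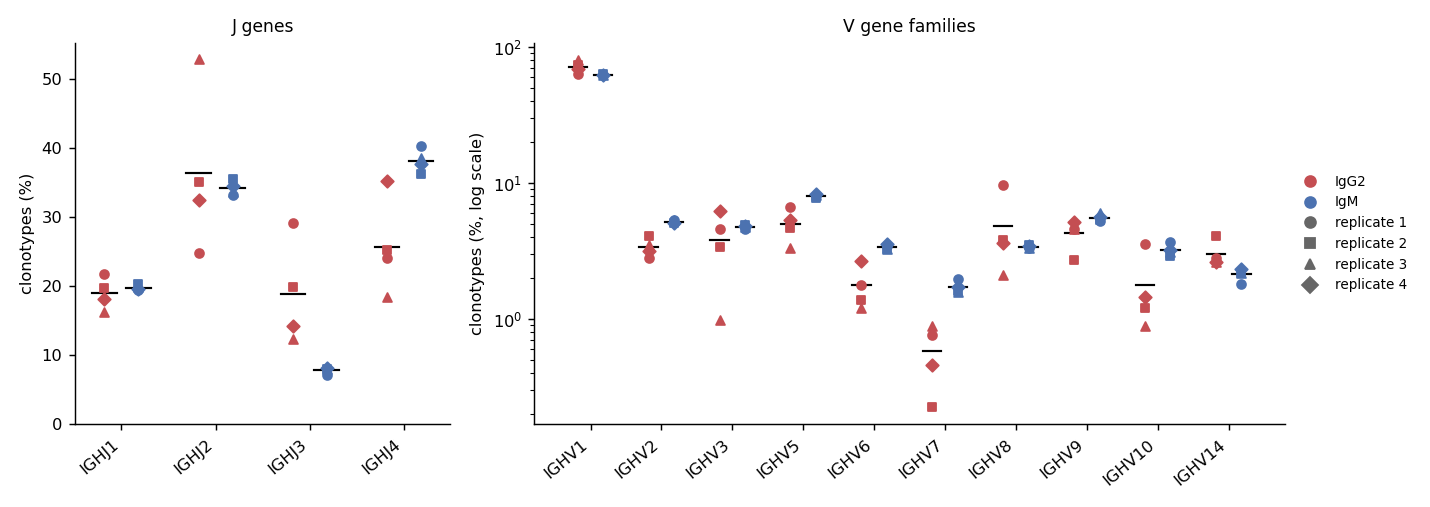
Percent of clonotypes by J gene (left) and by V gene family (right, log scale) in lymph node IgG2 (red) and IgM (blue), 1 symbol shape per replicate and black lines at the means (n = 4). IgG2 lies above IgM for IGHJ3 (12.4% to 29.2% against 7.16% to 8.23%) and below it for IGHJ4 (18.4% to 35.2% against 36.2% to 40.3%).

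At the level of single V genes, no gene passed the test of clonotype numbers. With edgeR's quasi-likelihood test and the replicate as a block, 0 of 79 V genes had an adjusted p under 0.05 (0% called), 18 had an unadjusted p under 0.05 (8 higher and 10 lower in IgG2), and DESeq2 with the same block also called 0 (17 at an unadjusted p under 0.05). Without the replicate block edgeR called 16, of which 8 were higher in IgG2, and in lineages it also called 16, of which 9 were higher. The values of IgG2 and IgM did not overlap for 16 of 79 genes (20.3%), 2 higher and 14 lower in IgG2. The higher ones, named after their values were seen, were IGHV14-2 at 0.803% ± 0.245 in IgG2 and 0.318% ± 0.0517 in IgM, and IGHV1-19 at 3.0% ± 0.716 in IgG2 and 1.95% ± 0.0882 in IgM (SD, n = 4). The count filter kept 79 of the 141 V genes seen, and a gene could pass it through the larger IgM sets alone. IGHV5-15 and IGHV15-2, among the 14 lower genes, had 0, 1, 0 and 1 IgG2 clonotypes in replicates 1 to 4. The split of 2 higher and 14 lower was not separated from this filter.

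The 5 V genes of smallest p had adjusted p of 0.0699 to 0.0827 by edgeR. IGHV7-3 (chr12:114153180-114153644) was used by 0.254%, 0.149%, 0.656% and 0.381% of IgG2 clonotypes, against 1.45%, 1.21%, 1.13% and 1.24% of IgM clonotypes (log2 difference -1.71 ± 0.499, SE). IGHV1-62-2 (chr12:115446417-115446710) was used by 0.254%, 0.335%, 0.875% and 0.839% of IgG2 clonotypes, against 1.63%, 1.73%, 1.59% and 1.64% of IgM clonotypes. Both were lower in all 4 replicates. IGHV1-61, IGHV1-75 and IGHV1-62-3, of the J558 family, had fitted log2 differences of 1.09, 1.0 and 1.25 with overlapping values. IGHV1-61 and IGHV1-75 were lower in IgG2 in replicate 3 and higher in the others. IGHV1-62-2 and IGHV1-62-3 lie close together, at chr12:115446417-115446710 and chr12:115460999-115461431, and had fitted differences of opposite sign.

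The most used V genes were largely the same in both isotypes. IGHV1-26 (chr12:114788372-114788665) was used by 10.4%, 7.34%, 7.22% and 5.80% of IgG2 clonotypes, against 8.95%, 8.17%, 8.54% and 8.75% of IgM clonotypes. IGHV1-18 was used by 2.54%, 3.47%, 29.2% and 8.62% of IgG2 clonotypes, against 4.03%, 3.49%, 4.24% and 4.17% of IgM clonotypes. Replicate 3 alone, with 267 of the 483 IGHV1-18 clonotypes of IgG2, set its mean. IGHV1-82 averaged 3.88% ± 1.15 in IgG2 and 3.78% ± 0.114 in IgM, and IGHV3-6 averaged 3.47% ± 2.22 in IgG2 and 3.95% ± 0.126 in IgM (SD, n = 4).

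By family, the fitted edgeR log2 differences had a median of 0.16 over the 40 J558 genes tested (24 above 0), -0.76 over the 9 IGHV5 genes (0 above 0), -0.25 over the 7 of Q52 (1 above 0), -0.73 over the 2 IGHV3 genes and 0.53 over the 3 IGHV14 genes. The median over all 79 genes was -0.10, with 33 above 0. IGHV1-72, known as VH186.2 from the response of C57BL/6 mice to the hapten NP, and the related IGHV1-53 and IGHV1-64 together made up 6.09%, 8.83%, 4.49% and 9.46% of IgG2 clonotypes, against 9.29%, 9.36%, 9.04% and 8.33% of IgM clonotypes. The V genes typical of B-1a cells, a self-renewing population of the body cavities (IGHV11-1, IGHV11-2 and IGHV12-3), gave 0 of 394, 18 of 2683, 0 of 914 and 9 of 1311 IgG2 clonotypes, against 29 of 22556, 157 of 91918, 45 of 41700 and 109 of 76535 IgM clonotypes. A count of 0 allows a share of up to 0.761% in replicate 1 and 0.328% in replicate 3. In replicates 2 and 4 the IgG2 shares were 0.671% (exact 95% interval 0.398 to 1.06%) and 0.686% (0.314 to 1.30%), above the IgM shares of 0.171% (0.145 to 0.20%) and 0.142% (0.117 to 0.172%). IGHV11-2 gave 3 of the 18 in replicate 2 and 7 of the 9 in replicate 4, so these replicates rest mainly on different genes of the list. In replicate 2 IGHV11-2 was used by 0.112% of IgG2 and 0.0968% of IgM clonotypes, and in replicate 4 by 0.534% and 0.114%. The intervals cover counting error only and take clonotypes as independent draws, which clonotypes of 1 lineage may not be.

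CDR3 length did not differ in 1 direction. It averaged 12.8, 12.1, 12.0 and 12.5 amino acids in IgG2 of replicates 1 to 4, against 12.3, 12.2, 12.3 and 12.2 in IgM. IgG2 was longer in replicates 1 and 4 and shorter in replicates 2 and 3 (mean difference 0.09 ± 0.34 amino acids, SD of the 4 differences; exact sign-flip permutation p = 0.625). With IgM weighted to the J gene makeup of IgG2 the mean difference was 0.30 and IgG2 was longer in 4 of 4 replicates, by 0.66, 0.010, 0.21 and 0.33 amino acids (exact sign-flip permutation p = 0.125, the smallest 4 pairs allow). In IgM, CDR3 with IGHJ3 averaged 11.4 amino acids in each replicate, with IGHJ2 11.1 to 11.2, and with IGHJ4 12.9 to 13. Within V genes, 0 of 9 differed by limma (0% called; 0 at an unadjusted p under 0.05), with differences of -0.74 to 0.51 amino acids.

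The amino acids of CDR3 did differ. Over clonotypes, 6 of 20 amino acids passed limma on log2 percent (30.0% called), 3 of them higher in IgG2 (15.0%) and 3 lower (15.0%), and 7 of 20 did not overlap (35.0%). The spread was pooled by limma over the 20 amino acids, so their SEs were nearly equal (0.137 to 0.150). The 20 percentages come from the same 4 replicates and are not independent. These p-values thus do not measure the spread of 1 residue alone and cannot be set beside the exact tests of 4 pairs. Cysteine, which can form disulphide bonds inside the loop, made up 0.377%, 0.368%, 0.463% and 0.470% of CDR3 residues in IgG2, against 0.246%, 0.181%, 0.203% and 0.184% in IgM (log2 difference 1.04 ± 0.139, SE; limma adjusted p = 7.27e-09). Tryptophan made up 3.07%, 2.87%, 4.08% and 2.76% in IgG2, against 2.07%, 2.21%, 2.18% and 2.14% in IgM (log2 difference 0.55, limma adjusted p = 0.00115). Methionine made up 1.90%, 2.13%, 1.61% and 2.66% in IgG2, against 3.34%, 3.11%, 3.27% and 3.21% in IgM (log2 difference -0.66, limma adjusted p = 0.00013). None of these 3 overlapped. As background, the CDR3 end of germline IGHJ4 encodes a methionine and that of IGHJ3 a tryptophan, and the part of J gene use in these differences was not tested.

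Isoleucine was higher in IgG2 (log2 difference 0.46, limma adjusted p = 0.0130), with 3.28% in IgG2 of replicate 3 and 1.19% to 1.33% in IgG2 of the other replicates, against 1.15% to 1.19% in IgM. Without replicate 3 its difference was 0.11. Histidine (log2 difference -0.44, limma adjusted p = 0.0112) and lysine (-0.39, limma adjusted p = 0.0243) were lower, lysine in 3 of 4 replicates. Neither call held throughout. Histidine gave limma adjusted p = 0.239 in lineages (log2 difference -0.21), 0.132 without replicate 1 and 0.103 without replicate 2. Lysine gave limma adjusted p = 0.167 with no replicate block, 0.206 with copies as weights, and 0.514, 0.159 and 0.218 without replicate 1, 3 or 4. Tyrosine, the most used residue, averaged 19.8% ± 1.45 in IgG2 and 21.7% ± 0.0815 in IgM (SD, n = 4) and was lower in 4 of 4 without passing (limma adjusted p = 0.628). Without clonotypes of 1 copy, 1 of 20 passed, and with copies as weights 3 of 20 passed, all 3 lower in IgG2. With copies as weights cysteine turned to a log2 difference of -1.04 and isoleucine to -0.21.

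Some IgG2 clonotypes were also found among the IgM of the same lymph node replicate. They numbered 24, 196, 70 and 121, or 6.09% (exact 95% interval 3.94 to 8.93%), 7.31% (6.35 to 8.36%), 7.66% (6.02 to 9.58%) and 9.23% (7.72 to 10.9%) of IgG2 clonotypes. In the IgM of the other 3 replicates the same IgG2 clonotypes were found at 0.254%, 0.211%, 0.219% and 0.0763% on average. The means were 7.57% in the own replicate and 0.190% in the others, and the exact one-sided permutation over the 24 pairings of replicate numbers gave p = 0.0417, the smallest it can give. The other replicates give no measure of wrong constant gene calls inside a replicate, whose part in this sharing was not tested. Without the clonotypes called unlike in the technical libraries the means were 5.93% and 0.132% with the same p. With both isotypes taken from technical library 1 the own-replicate mean was 6.46% and that in the other replicates 0.154%, and in technical library 2 they were 5.73% and 0.120%. With the IgG2 of one library set against the IgM of the other, which counts the unlike calls as shared, the own-replicate mean was 3.29% or 4.01%, and 0.110% or 0.106% in the other replicates.

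Of the 411 clonotypes holding both isotypes, 89 had an identical sequence under both, 340 held both inside 1 technical library and 295 had a single copy of the rarer isotype. IgG2 copies were the more numerous in 111, IgM copies in 139, and 161 were equal. They held 10.9%, 13.5%, 25.3% and 68.5% of all IgG2 copies, against 1.34%, 2.21%, 1.61% and 10.1% of all IgM copies, and 0.106% to 0.213% of IgM clonotypes. In replicate 4 they include the IGHV9-3 sequence of unlike call described above, with 10232 of its 23719 IgG2 copies. Without the clonotypes called unlike in the technical libraries, those holding both isotypes made up 4.73%, 5.44%, 22.6% and 11.5% of IgG2 copies, against 0.949%, 1.0%, 0.752% and 0.391% of IgM copies.

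**Figure D5:**
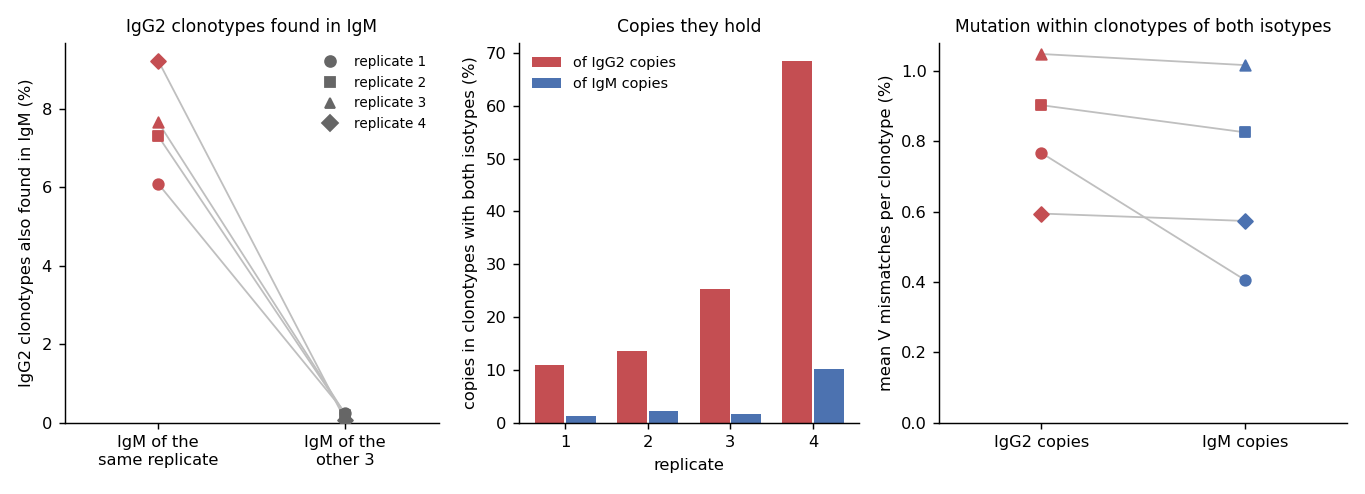
Left, percent of IgG2 clonotypes found among IgM of the same replicate (6.09% to 9.23%) and, as the mean over the other 3 replicates, among their IgM (0.0763% to 0.254%). Middle, percent of IgG2 (red) and IgM (blue) copies in clonotypes holding both. Right, mean V mismatch percent of the IgG2 and the IgM copies of the same clonotypes, 1 symbol shape per replicate.

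Within these clonotypes the IgG2 copies were slightly more mutated than the IgM copies. They carried 0.767%, 0.903%, 1.05% and 0.595% mutation as IgG2, against 0.405%, 0.825%, 1.02% and 0.574% as IgM. The difference was above 0 in 4 of 4 replicates (mean 0.12 percentage points; exact sign-flip permutation p = 0.125, n = 4 pairs), but it was 0.36 points in replicate 1, which had 24 such clonotypes, and without that replicate the mean was 0.043. Without the clonotypes called unlike in the technical libraries the mean was 0.17 points, with 0.47, 0.16, 0.021 and 0.039 in replicates 1 to 4. With at least 2 copies of each isotype, replicate 2 turned to -0.07. The IgM members of these clonotypes were above the mean of all IgM clonotypes in replicates 2, 3 and 4 and below it in replicate 1. Inside a technical library nearly every sequence carried a single constant gene, so IgG2 and IgM copies there were different sequences. Of the 411 clonotypes, 340 held both isotypes inside 1 library and 295 had a single copy of the rarer isotype. What these limits add to the difference was not tested.

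The clonotypes named for holding both isotypes, 2 per replicate, all include a sequence of unlike call. The IGHV1-39 clonotype of replicate 3, printed above, held 226 IgG2 copies in 47 sequences with 1.18% mutation, against 537 IgM copies with 0.0440%. Both isotypes were present in each technical library, with 97 and 129 IgG2 copies and 279 and 258 IgM copies in libraries 1 and 2. It was the largest IgM clonotype of that replicate. The IGHV1-9 clonotype of replicate 1 held 88 IgG2 copies with 0.126% mutation, against 98 IgM copies with 0%. Its IgG2 copies numbered 5 and 83 in technical libraries 1 and 2, and its IgM copies 98 and 0. The IGHV1-61 clonotype of replicate 2 held 406 IgG2 copies, all in technical library 1, against 474 IgM copies, all in technical library 2, and had 0% mutation under both.

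The IgG2 and IgM sets of spleen, taken from the same series, were compared in the same 5 measures. The IgG2 minus IgM difference in mean mutation was 1.36 points in lymph node and 1.25 points in spleen (difference 0.11; exact two-sided permutation over the 70 splits of 4 against 4 p = 0.743, adjusted p = 0.929 over 5 measures). Unmutated clonotypes differed by -40.8 points in lymph node and -35.7 points in spleen (adjusted p = 0.524 by the same exact test). The 10 largest clonotypes at equal copies differed by 55.4 points in lymph node and 29.6 points in spleen, with ranges over the replicates of 30.0 to 69.2 points in lymph node and 5.48 to 49.8 points in spleen (adjusted p = 0.357 by the same exact test). Paired by replicate number, that difference was larger in lymph node in 4 of 4 replicates, by 19.4, 24.5, 18.6 and 40.7 points (exact sign-flip permutation p = 0.125, the smallest 4 pairs allow, adjusted p = 0.625 over 5 measures). Clonotypes of unlike call were kept in these values, and in lymph node replicate 4 they include the largest IgG2 clonotypes. CDR3 length differed by 0.09 amino acids in lymph node and 0.45 in spleen (adjusted p = 0.357), where IgG2 was longer in 4 of 4 spleen replicates. The share of IgG2 clonotypes found in own IgM less that in other replicates was 7.38 points in lymph node and 7.21 points in spleen (adjusted p = 0.971). Unpaired, 0 of 5 differences between the tissues passed 0.05, and 0 of 5 had an unadjusted p under 0.05, which does not show that the tissues are alike.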

How the data were processed

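Per the labels' protocols, a commercial service reverse-transcribed RNA with constant-region primers carrying a 10-nucleotide molecular identifier, extended it with V gene primers and sequenced 2 technical libraries per replicate. The deposited tables list each distinct sequence with V, J and constant gene, junction, V mismatches and aligned V length (other measurements made by the authors), and whole-number counts, printed as copies. The file headers do not say whether this count is of identifiers or of reads. Per the submitters' processing notes the build was mm10, and of the aligner the sources used here give no name.

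Copies of the 2 technical libraries were added (44772 to 117512 copies per library). The replicate numbers pair the groups because IgG2 and IgM come from the same libraries. Lymph node and spleen were compared unpaired, and also paired by replicate number, under which most shared IgG2 sequences were found. Intervals are exact Clopper-Pearson at 95%, and a count of 0 was given the limit of 3 counts. They and all p-values cover the spread between these samples or counting error only, since the labels do not tie replicates to animals. V gene counts of clonotypes were tested with edgeR 4.0.16 (TMM, filterByExpr, replicate block, R 4.3.3), with DESeq2 1.42.0 as an alternative. Means per V gene and log2 percent per amino acid were tested with limma 3.58.1, both with Benjamini-Hochberg adjustment. Single values had exact permutation tests. Families with at least 1% of clonotypes were tested. Mismatch positions could be placed for 89.3% of clonotype sequences. On simulated data, edgeR recovered 17 of 20 V genes changed 4-fold among 79, with 0 false calls. The limma steps recovered 8 of 8, 8 of 8 and 6 of 6, with 1, 1 and 0 false calls. Those for mutation and CDR3 length used 21 V genes, and that for CDR3 residues 20 amino acids. The simulated spread of V gene counts was a fixed setting, not fitted to these data. The limma shifts were several residual SDs in size. The recovery thus does not give the power of the tests reported above. Python 3.11.15, numpy 2.4.6, pandas 2.3.3, scipy 1.17.1 and matplotlib 3.10.9 were used.

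The set compared, the gene lists and the measures were chosen with earlier results of these data known. V genes were named when they passed edgeR, or, as fewer than 5 passed, as the 5 of smallest p, with the 3 of most clonotypes in each isotype. For mutation the 5 largest and 3 smallest differences per V gene were named. All J genes, V families and amino acids past 0.05 were given, and clonotypes were named by copies (3 largest per replicate among those called IgG2 in both technical libraries, and 2 per replicate with both isotypes). For CDR3 length no V gene is named because none passed. Replacement and CDR2 shares, reweighted IgM, the pairing of the tissues, and sets without unlike calls or shared clonotypes were added after the data were seen.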

Additional observations from a re-analysis of the deposited data

Results flagged for a closer look

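With 4 replicates per group, a value was listed when it stood apart from the other 3 by most of the group's range (Dixon's 95% criterion), which chance does in about 1 of 20 groups. Of 96 groups examined, 8 were listed. The IgG2 share of IGHV14 was highest in replicate 2 (4.03%, the others 2.59% to 2.79%). The share of IgG2 copies in the 10 largest clonotypes was lowest in replicate 2 (37.1%, the others 69.3% to 74.9%), which also had the most IgG2 copies. IGHV1-18 mutation in IgM was highest in replicate 3 (0.932%, the others 0.648% to 0.688%), the replicate in which IGHV1-18 made up 29.2% of IgG2 clonotypes. IGHV9-3 mutation in IgG2 was highest in replicate 4 (0.801%, the others 0.516% to 0.556%). CDR3 histidine in IgG2 was highest in replicate 4 (1.05%, the others 0.751% to 0.782%), and CDR3 isoleucine in IgG2 in replicate 3 (3.28%, the others 1.19% to 1.33%). Clonotypes holding both isotypes took up 10.1% of IgM copies in replicate 4, the others 1.34% to 2.21%, and the unlike calls described above lie in these clonotypes. The IgG2 minus IgM mutation difference inside clonotypes was highest in replicate 1 (0.362 points, the others 0.0210 to 0.0773).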

How the results depend on the processing

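Each result was recomputed under the alternatives named in the report. Of 208 recomputed values of the main results, 178 kept their direction and their side of the threshold (counts within 1.5 times). With no replicate block, the differences in mutation (1.36), unmutated clonotypes (-40.8), distinct clonotypes at equal copies (-3588) and the 10 largest clonotypes (55.4) passed 0.05 by the exact test, as did 6 V families, because 4 unpaired replicates allow a smaller p than 4 pairs. V genes called numbered 16 with no replicate block, 16 in lineages, 2 with no filter, 1 in clonotypes seen in both technical libraries, 1 without unlike calls, and 0 to 3 when a replicate was left out, against 0. V genes called for mutation numbered 0 with copies as weights, 13 with at least 5 clonotypes, and 3 to 7 when a replicate was left out, against 6. For CDR3 length 1 was called with at least 5 clonotypes, against 0. Amino acids called numbered 3 with copies as weights and 1 without single-copy clonotypes, against 6. Mean CDR3 length turned to -0.34 with copies as weights (-0.29 when unlike calls were also left out), -0.068 without single-copy clonotypes and -0.044 without replicate 1 (range -0.044 to 0.19 with a replicate left out). The share of IgG2 clonotypes that also hold IgM, less that in other replicates, was 6.77 to 7.85 points with a replicate left out, where 3 pairs cannot reach 0.05.

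Directions turned as follows, in each case for a difference without a call except cysteine and isoleucine. With copies as weights: IGHV9 13.4, IGHV1-26 1.35, IGHV3-6 0.50, cysteine -1.04 and isoleucine -0.21. With copies as weights and no unlike calls: IGHV9 4.45 and IGHJ2 -5.96. In lineages: IGHJ2 -2.53, CDR2 share -1.33 and IGHV1-26 0.33. In clonotypes of both technical libraries: CDR2 share -4.19 and framework 3 replacement share -0.21. Without single-copy clonotypes: framework 3 replacement share -0.37, IGHV1-82 -0.089 and the lymph node minus spleen difference in clonotypes of both isotypes -3.38. IGHV1-26 gave 0.016 with no replicate block and 0.069 by DESeq2, and IGHV1-82 gave -0.076 with no filter. With a replicate left out, IGHJ1 ranged from -1.87 to 0.13, IGHJ2 from -3.54 to 5.66, IGHV8 from -0.25 to 2.27, IGHV1-26 from -0.12 to 0.21 and IGHV3-6 from -0.53 to 0.075. The lymph node minus spleen difference ranged from -0.080 to 0.34 for mutation and from -0.88 to 0.99 for clonotypes of both isotypes. With lymph node and spleen paired by replicate number as a block, 0 of 5 measures passed 0.05, as without it, and 4 pairs cannot reach it. The cause of these turns was not tested. Tests of mutation and of CDR3 length per V gene gave no value in 3 settings, since too few V genes remained. These were at least 20 clonotypes, single-copy clonotypes left out, and clonotypes of both technical libraries. IgG2 of replicate 1, with 394 clonotypes, limits the precision of every comparison.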

Other observations

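Few IgG2 clonotypes recurred between lymph node replicates. Of those of replicates 1 to 4, 29 (7.36%), 63 (2.35%), 39 (4.27%) and 6 (0.458%) were in the IgG2 of another lymph node replicate, against 228 (1.01%), 541 (0.589%), 330 (0.791%) and 415 (0.542%) of the IgM clonotypes in another replicate's IgM. In all, 66 IgG2 clonotypes were in at least 2 replicates, and 49 of them had at most 2 copies outside the replicate where they were largest. The same IgG2 sequences were found in spleen IgG2 mostly under the same replicate number, with 8, 118, 17 and 36 sequences for replicates 1 to 4, and 0 to 7 under any other number. For replicate 1 the raw counts were close, with 8 sequences in spleen replicate 1 and 7 in spleen replicate 2. Its IgM sequences found in spleen replicates 1 to 4 numbered 81, 194, 105 and 128. These counts were not scaled to the spleen sets, which differ widely in size. Spleen replicate 1 held 926 IgG2 clonotypes, against 17872 in spleen replicate 2. It held 15939 IgM clonotypes, against 325857, 180556 and 230702 in spleen replicates 2 to 4. IgM of lymph node replicates 2 to 4 was found most under the same number.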
